A study of Mus musculus with 2 samples.

Results

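The genes described here are the tumour suppressor gene Trp53, which encodes p53, and 9 genes that p53 is known to switch on after DNA damage: Mdm2, Aen, Ccng1, Phlda3, Sesn1, Zmat3, Trp53inp1, Eda2r and Tnfrsf10b. They are 10 of the 23462 genes that could be named on the array, and they were chosen by name through the RefSeq accession of each probe. Expression was measured on 2 one-colour Agilent arrays of mouse CD8 T cells. The starting cells were splenic naive CD8 T cells (CD44 low, CD62L high) of C57BL/6 mice, activated for 2 days by plate-bound antibodies against TCRβ and CD28. In one culture prednisolone, a synthetic glucocorticoid, was present at 1 µM over these 2 days, and the other is labelled vehicle control. Both cultures received interleukin-2 from the outset, were moved to a new plate for 3 more days with interleukin-2, and thus ran for 5 days. How many mice each culture came from was not stated. With 1 prednisolone array and 1 vehicle array, no difference could be tested, and none has a p-value.

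p53 is a transcription factor that is made and destroyed continuously in unstressed cells. Its ubiquitin ligase Mdm2 marks it for the proteasome, and because Mdm2 is itself a p53 target the pair forms a feedback loop. DNA damage and disturbed ribosome assembly slow the destruction, so p53 activity is set largely at the level of the protein, which an array does not read. In T cells the pathway is known for limiting survival after damage and for restraining rapid division after antigen receptor stimulation.

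With prednisolone, the 10 genes did not move together. Aen, which encodes a nuclease of the p53 apoptotic response, was 2.88-fold higher (log2 difference 1.52 ± 0.14, where ± is the error that the scanner software assigns to the signals). It was the only one of the 9 members with a value to lie at least 2-fold apart. Phlda3 was 1.72-fold higher and Zmat3 1.51-fold higher, while Sesn1 was 1.44-fold lower. Trp53 itself was 1.26-fold higher and Mdm2 1.14-fold higher, and Ccng1 and Trp53inp1 lay within their errors of no difference. Eda2r could not be told from background. Among the 11969 genes well above background on both arrays, 5.76% were at least 2-fold higher with prednisolone and 6.62% at least 2-fold lower, or 12.4% in either direction. The members had 1 of 9 higher and 0 of 9 lower. Their median log2 difference was 0.19, against 0.0015 over all 11969 genes.

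**Figure D1:**
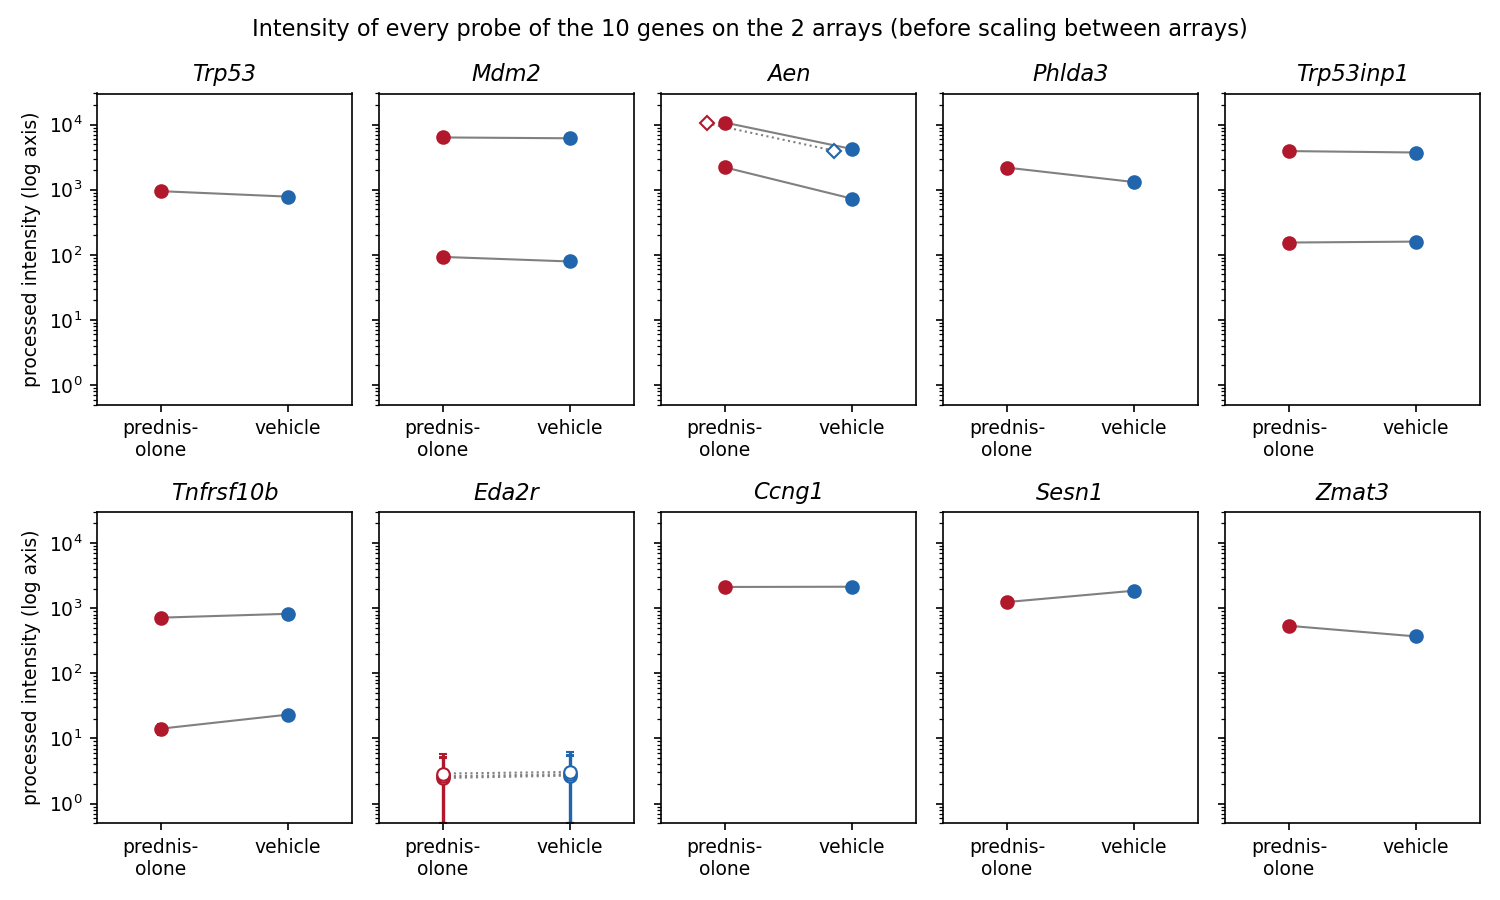
Processed intensity (log axis, before scaling between arrays) of all 17 probes of the 10 genes, prednisolone at left and vehicle at right in each panel. Each line is 1 probe and each bar the scanner software's error, mostly smaller than the symbol and cut at the axis for Eda2r. The open diamonds of Aen carry an outlier flag and the open symbols of Eda2r were not well above background. The 3 Aen lines fall from prednisolone to vehicle, and the height of different probes cannot be compared.

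The letters around the transcription starts of these genes show where p53 could be read from the DNA. RefSeq windows on build GRCm38.p6, from 250 bases before to 50 after a start, matched 7 of the 10 genes in 9 windows. They were searched for the p53 half-site consensus, the name of the 10-base unit that p53 recognises in pairs, which reads the same on both strands. It stood in 6 of the 9 windows, for the genes Trp53, Mdm2, Aen, Ccng1 and Sesn1, against 8.36% of all 32851 windows. Overlapping windows of 2 Aen starts hold the same site. A pair of half-sites with up to 13 bases between them and at most 1 mismatch in all stood before Ccng1, against 1.09% of all windows. The glucocorticoid receptor motif, the units GNACA and TGTNC with any 3 bases between them and also the same on both strands, stood in 0 of the 9 windows, against 0.475% of all windows. A match describes the letters and shows no binding, and a window without one says nothing of the factor. Sites of p53 targets are also known in first introns, which these windows largely leave out. The 250 bases before the start are printed for the gene highest with prednisolone, the next highest, the lowest, and the gene with the pair, with the half-sites in capitals, 5′ to 3′ on the gene's strand.
Aen, second start, + strand, chr7:78895808-78896057: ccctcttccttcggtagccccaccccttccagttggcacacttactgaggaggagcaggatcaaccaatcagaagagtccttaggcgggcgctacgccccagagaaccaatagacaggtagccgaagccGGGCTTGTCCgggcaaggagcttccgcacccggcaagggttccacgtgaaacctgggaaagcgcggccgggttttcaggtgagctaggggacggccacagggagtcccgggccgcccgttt
Phlda3, + strand, chr1:135765835-135766084: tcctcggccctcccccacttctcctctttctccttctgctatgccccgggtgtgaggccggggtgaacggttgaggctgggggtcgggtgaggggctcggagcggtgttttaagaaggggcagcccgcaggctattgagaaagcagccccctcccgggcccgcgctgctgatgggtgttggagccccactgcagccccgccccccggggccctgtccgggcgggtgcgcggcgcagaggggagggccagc
Sesn1, second start, + strand, chr10:41887189-41887438: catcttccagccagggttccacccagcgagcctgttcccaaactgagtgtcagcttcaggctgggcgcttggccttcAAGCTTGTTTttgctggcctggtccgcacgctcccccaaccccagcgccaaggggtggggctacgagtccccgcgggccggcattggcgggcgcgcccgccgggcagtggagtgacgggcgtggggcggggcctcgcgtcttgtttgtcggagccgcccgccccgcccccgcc
Ccng1, − strand, chr11:40755287-40755536: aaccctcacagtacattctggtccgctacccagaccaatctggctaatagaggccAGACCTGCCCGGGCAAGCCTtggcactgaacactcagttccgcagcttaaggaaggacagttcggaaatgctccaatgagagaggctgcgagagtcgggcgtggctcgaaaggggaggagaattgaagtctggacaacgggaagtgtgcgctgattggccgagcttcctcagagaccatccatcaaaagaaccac

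**Figure D2:**
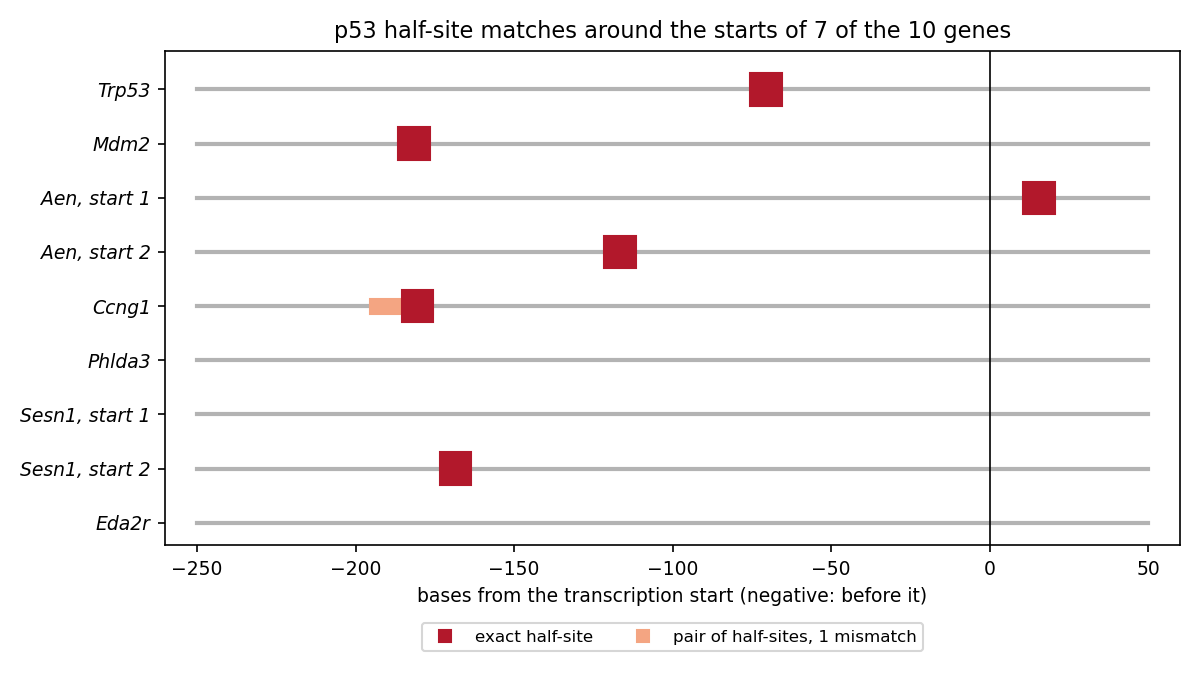
Position of the p53 half-site matches in the 9 RefSeq windows of 7 of the 10 genes, in bases from the transcription start. Red boxes are exact half-sites and the pale box of Ccng1 is the pair with 1 mismatch. The windows of Phlda3 and Eda2r and the first start of Sesn1 hold no match.

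The exact unit before Ccng1 runs from −185 to −176 and lies inside the pair, from −195 to −176 with no spacer. The Aen unit lies at −121 to −112 of the second start and at 11 to 20 of the first, and the Sesn1 unit at −173 to −164 of the second start. The units of Trp53 and Mdm2, the 2 genes of the feedback loop, are shown for comparison with those above.
Trp53, −75 to −66: GGACTTGCCC
Mdm2, −186 to −177: GAACTTGCCT
Aen with a unit was higher, Sesn1 with a unit was lower, Phlda3 without one was higher, and Ccng1 with the pair was close to 0.

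Trp53 had an intensity of 949.2 on the prednisolone array and 782.7 on the vehicle array, from 1 probe. After each array was divided by its 75th percentile, the log2 difference was 0.33 ± 0.20, or 1.61 times the error. Mdm2, the ligase gene of the loop, had 2 probes. The brighter one read 6342 with prednisolone and 6158 with vehicle, and the dimmer one read 92.9 with prednisolone and 79.0 with vehicle. Their log2 differences were 0.09 ± 0.20 and 0.28 ± 0.21, and the mean was 0.19 ± 0.15. Both genes of the loop were therefore slightly brighter with prednisolone on every probe, by no more than 1.61 times the technical error. Of the measured genes, 26.2% had a higher difference than Trp53 and 35.1% a higher one than Mdm2.

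Aen is the first of the targets tied to cell death and survival signalling. It had 3 probes, 1 of which carries an outlier flag for its local background on both arrays and was left out of the mean. The 2 probes used read 10732 and 2203 with prednisolone, against 4205 and 727.6 with vehicle. The probe left out read 10470 with prednisolone and 3960 with vehicle. All 3 were brighter with prednisolone, with log2 differences of 1.40, 1.65 and 1.45, each ± 0.20. Only 2.13% of the measured genes had a higher difference than Aen, and its mean difference was 10.6 times the error. It was at least 2-fold higher under all 12 alternative settings, at 1.40 to 1.76.

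Phlda3 encodes a small lipid-binding protein that competes with the kinase Akt for the membrane and so damps Akt. Its probe read 2183 with prednisolone and 1310 with vehicle, a log2 difference of 0.79 ± 0.20. It thus lay under 2-fold, and 9.15% of the measured genes were higher. Scaling on the spike-in controls, which adds 0.23 to every difference, brought it to 1.02. Trp53inp1, whose product promotes p53 phosphorylation and autophagy under stress, had 2 probes. They read 3918 and 154.4 with prednisolone, against 3725 and 159.6 with vehicle. The differences were 0.12 ± 0.20 and 0.0018 ± 0.21, so neither probe separated the arrays beyond its error.

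Of the 2 receptor genes, Tnfrsf10b encodes the death receptor for the ligand TRAIL. Its brighter probe read 715.6 with prednisolone and 820.0 with vehicle, and its dimmer probe 14.1 with prednisolone and 23.2 with vehicle. The differences were −0.15 ± 0.20 and −0.67 ± 0.36, with a mean of −0.41 ± 0.21. Both probes were dimmer with prednisolone, but the size rests on the dim probe, which was close to the lowest intensities called well above background (11.8 with prednisolone and 12.9 with vehicle). On the brighter probe alone the value was −0.15, and after the normexp background correction −0.17. Eda2r encodes the receptor of the ectodysplasin form A2. Its 3 probes read 2.47 to 2.89 with prednisolone and 2.69 to 3.06 with vehicle, none well above background, so no difference is given.

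The targets tied to the cell cycle, metabolism and RNA ranged from 1.44-fold lower to 1.51-fold higher. Ccng1 encodes cyclin G1, a partner of a phosphatase that acts on Mdm2. It read 2118 with prednisolone and 2136 with vehicle. The scaled log2 difference was 0.04 ± 0.20, and its sign turned under 3 of the 12 alternatives. Sesn1 encodes sestrin 1, a stress protein that restrains mTORC1. It read 1243 with prednisolone and 1856 with vehicle, a difference of −0.53 ± 0.20 that stayed below 0 under all 12 alternatives (−0.58 to −0.29). Of the measured genes, 17.1% were lower. Zmat3 encodes a zinc finger protein that binds RNA and alters its stability and splicing. It read 536.4 with prednisolone and 368.5 with vehicle, a difference of 0.59 ± 0.20 with 14.2% of the measured genes higher.

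**Figure D3:**
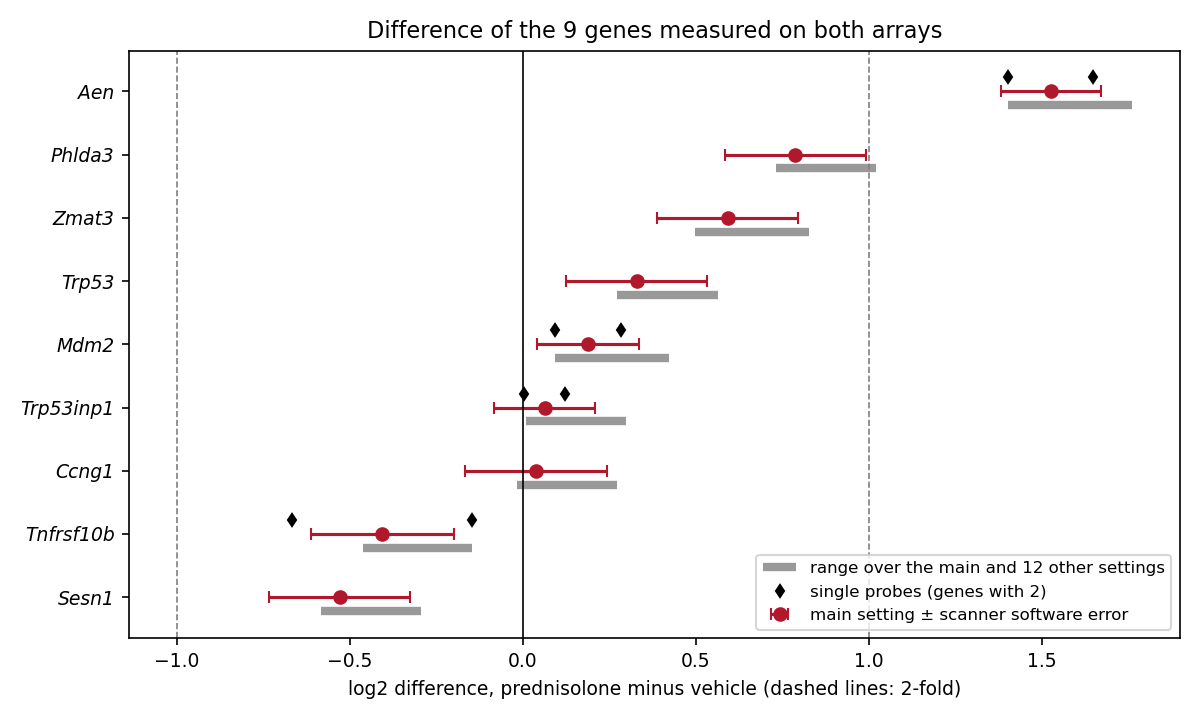
Log2 difference, prednisolone minus vehicle, of the 9 members measured on both arrays. Points with bars are the main setting with the scanner software's error, diamonds the single probes of the genes with 2, and grey bars the range over the main and 12 other settings. Aen lies beyond the 2-fold line in all of them, Phlda3 reaches it under spike-in scaling alone, and Ccng1 spans 0.

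The software's error does not include the spread between cultures, which 1 array per group cannot show. The differences of 7 of the 9 members were larger than that error, and those of 4 (Aen, Phlda3, Zmat3 and Sesn1) were more than 2 times as large. Differences of such size were common on these arrays. Of all measured genes, 70.0% lay at least as far from 0 as Mdm2, the smallest of the 7. For Sesn1, the smallest of the 4, the share was 33.4%. How many of all genes lay beyond their own error was not counted. Another view of the technical spread comes from probes printed 10 times on each array. The 18 of these that lay in the brightness range of the member probes had a median SD between spots of 0.12 (log2) on both arrays. The largest SD among the 18 was 0.42 with prednisolone and 0.26 with vehicle. Of the 9 members, 5 rest on a single probe of a single spot.

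**Figure D4:**
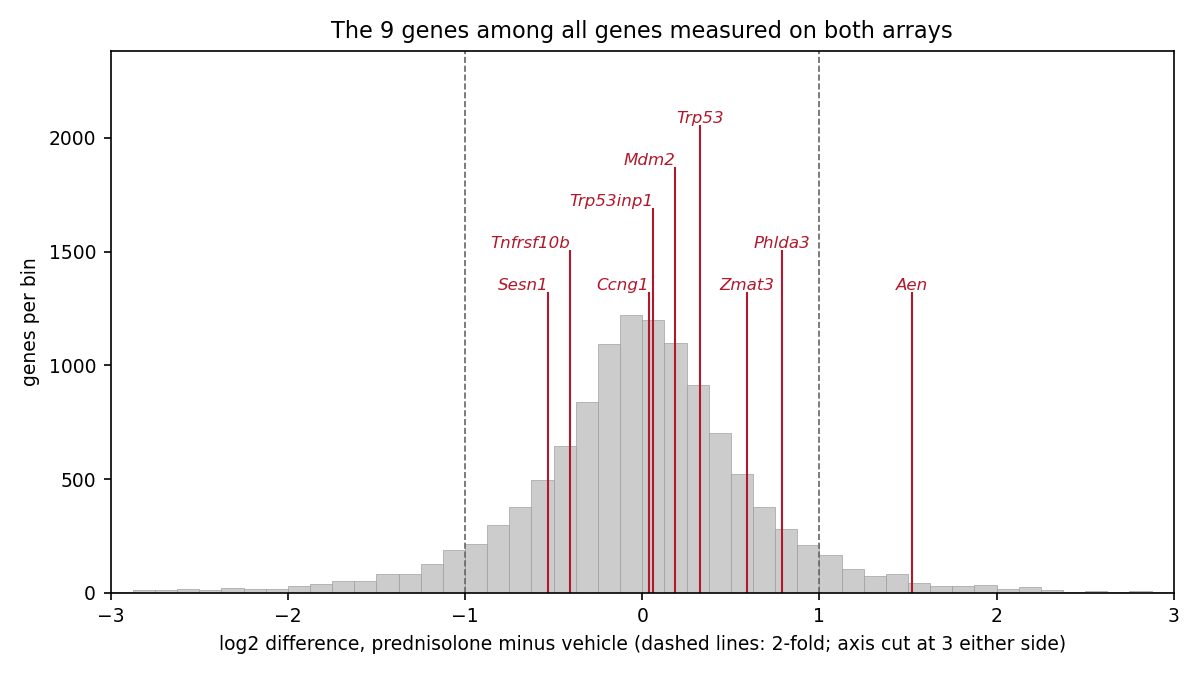
Number of genes per bin of log2 difference, prednisolone minus vehicle, for the 11969 genes measured on both arrays, with the 9 members as red lines. The dashed lines mark 2-fold, and the axis is cut at 3 on either side. Aen lies in the upper tail, with 2.13% of the genes beyond it, and the other 8 lie between the dashed lines.

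Genes related to the members, chosen after the data were seen, differed from them in several cases. The sestrin gene Sesn3 was 3.20-fold lower (501.7 with prednisolone, 1663 with vehicle), whereas Sesn2 was 1.54-fold higher (884.2 with prednisolone, 595.8 with vehicle). With Sesn1 at −0.53, the 3 sestrin genes thus ran from −1.68 to 0.62. Ccng2, the gene of cyclin G2, was 2.99-fold lower (−1.58 ± 0.15), with both probes below −1.5, while Ccng1 was near 0. Zmat1 was 2.69-fold lower, or −0.91 on the log2 scale after normexp, and Zmat2 and Zmat5 were at 0.18 and 0.07. Isg20, an exonuclease gene of the same family as Aen, was 3.25-fold higher, and Isg20l2 was 0.63 ± 0.20. Tnfsf10, the gene of the ligand TRAIL, was 0.79 ± 0.20, or 1.03 under spike-in scaling, while the decoy receptor genes Tnfrsf22 and Tnfrsf23 were −0.70 ± 0.15 and −0.78 ± 0.20. The 2 Tnfrsf22 probes differed, at −1.17 and −0.23. Phlda2, Eda and Edar were not well above background, and Phlda1 and Trp53inp2 had only spots with an outlier flag.

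A list of 30 other p53 target genes went both ways. Of the 27 measured, 3 were at least 2-fold higher, 1 at least 2-fold lower and 23 in between, with a median of −0.24 against 0.0015 over all measured genes. These 4 of 27 stand beside 12.4% of all measured genes in either direction. Under spike-in scaling 3 were higher, 0 lower and the median was −0.01, against 0.24 over all measured genes. With flagged spots kept 2 were lower. Plk3, a stress-responsive polo-like kinase gene, read 809.2 with prednisolone and 224.7 with vehicle (1.90 ± 0.20). Tigar, whose product lowers glycolytic flux by degrading fructose-2,6-bisphosphate, read 933.2 with prednisolone and 277.3 with vehicle (1.80 ± 0.20). Pmaip1, the gene of the BH3-only death protein Noxa, read 2136 with prednisolone and 918.5 with vehicle (1.27 ± 0.20). These 3 stayed at least 2-fold higher under all 12 alternatives. Psrc1, a spindle protein gene, was 2.17-fold lower (1416 with prednisolone, 3177 with vehicle), and −0.88 on the log2 scale under spike-in scaling.

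Bax, the gene of a pore-forming death protein, was 0.55 ± 0.14 with both probes alike, and Bbc3, the gene of the BH3-only protein Puma, was −0.23 ± 0.20, or 0.0066 under spike-in scaling. Cdkn1a, the gene of the cell cycle inhibitor p21, had a mean of −0.35 ± 0.15 over 2 probes that disagreed. The brighter one read 1398 with prednisolone and 2506 with vehicle (−0.79), and the dimmer one 75.4 with prednisolone and 72.9 with vehicle (0.10). Fas, a death receptor gene, showed the same kind of split, with −0.89 on the brighter probe and 0.02 on the dimmer. Ppm1d, a phosphatase gene that switches the response off, was 0.49 ± 0.15. Gdf15 and Dram1 were not well above background, and Ephx1 had only spots with an outlier flag.

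**Figure D5:**
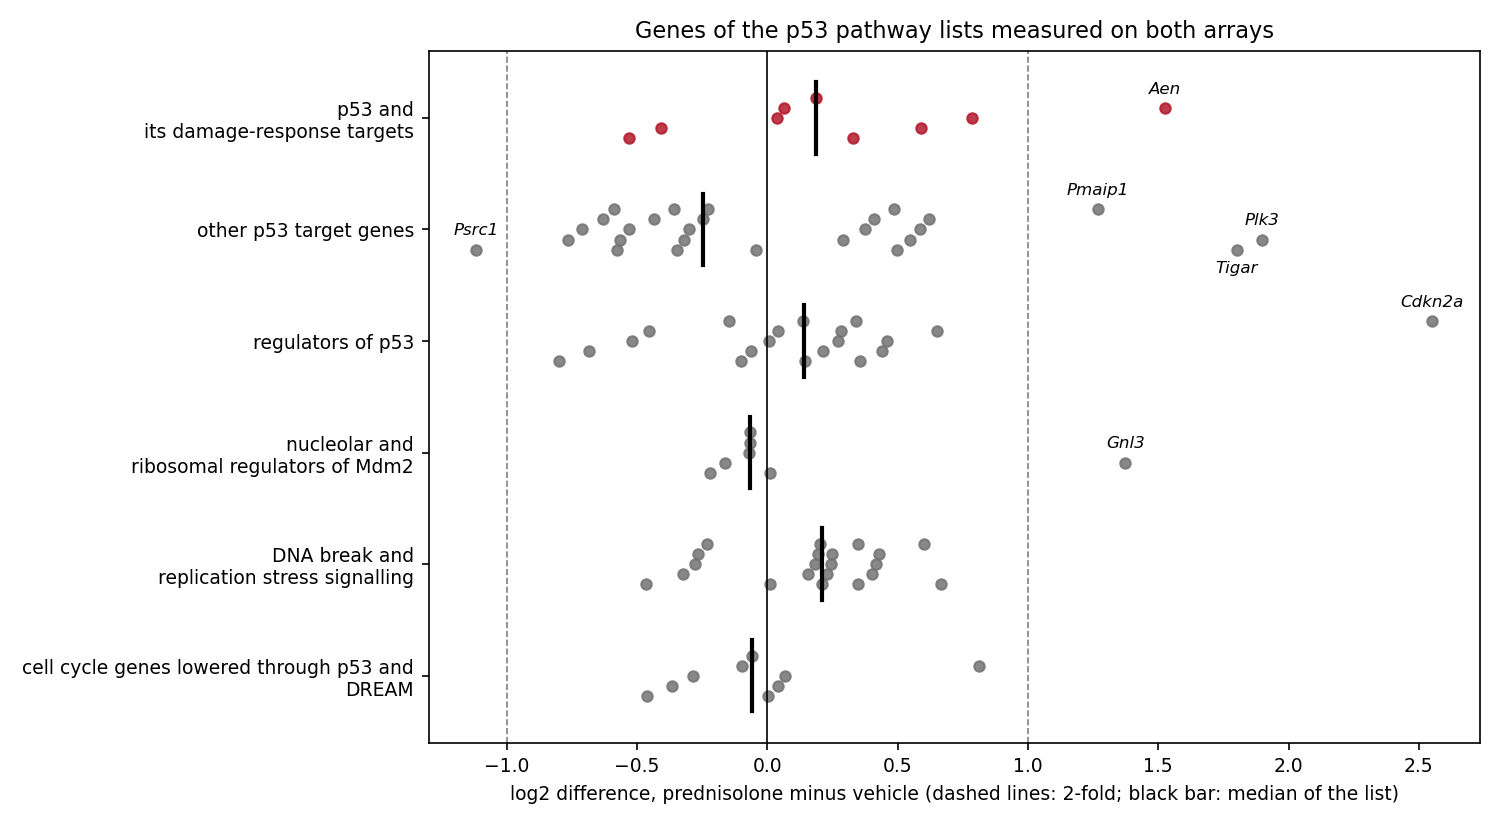
Log2 difference, prednisolone minus vehicle, of each measured gene of the 6 pathway lists. Each point is a gene, the black bar is the list's median, and genes beyond the dashed 2-fold lines are named. The members, in red at the top, have 1 gene beyond 2-fold, and the other p53 target genes have 3 higher and 1 lower.

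Among 21 regulators of p53, 20 were measured, with a median of 0.14 against 0.0015 over all measured genes. Of the 20, 1 was at least 2-fold higher and none was at least 2-fold lower. The shares over all measured genes were 5.76% higher and 6.62% lower. The gene beyond 2-fold was Cdkn2a, a locus that encodes the Mdm2 inhibitor Arf and the cell cycle inhibitor p16. It was 5.86-fold higher (2.55 ± 0.15). Its probes read 4697 and 312.9 with prednisolone, against 820.2 and 55.98 with vehicle. Both carry the same RefSeq accession, and which of the 2 products they read was not examined. The value ranged from 2.11 to 2.78 over the alternatives. Mdm4, the partner of Mdm2, was −0.06 ± 0.10 over 4 probes and turned to 0.17 under spike-in scaling. The damage kinase genes Atm, Chek2 and Chek1 were 0.04 ± 0.15 (with its sign turned under 2 alternatives), 0.15 ± 0.21 and 0.65 ± 0.14. The family members Trp63 and Trp73 were −0.15 ± 0.20 (0.09 under spike-in scaling) and 0.21 ± 0.22. With no filter on dim probes Trp73 was 1.07, which made 2 regulators at least 2-fold higher. Kat5 had only spots with an outlier flag.

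The 7 nucleolar and ribosomal genes whose proteins bind Mdm2 or p53 held 1 gene at least 2-fold higher, against 5.76% of all measured genes. It was Gnl3, which encodes nucleostemin (1632 with prednisolone, 652.1 with vehicle, 1.37 ± 0.20). The other 6 lay between −0.22 and 0.01. All 6 were above 0 under spike-in scaling, as were 8199 of all 11969 measured genes, whose median was then 0.24. None of the 21 genes of DNA break and replication stress signalling was 2-fold apart, against 12.4% of all measured genes. Of the 21, 16 lay above 0 and the median was 0.21, against 5998 of 11969 and 0.0015 over all measured genes. Rpa2, a subunit of the single-strand binding protein, was at 0.67 ± 0.20 and Lig4, the end-joining ligase gene, at 0.60 ± 0.18. After normexp Rpa2 was at 0.57 and Lig4 at 0.29. None of the 9 measured of 10 cell cycle genes that p53 lowers through the DREAM repressor was 2-fold apart either. Their median was −0.06, or 0.18 under spike-in scaling, against 0.0015 and 0.24 over all measured genes. Mybl2 (0.81 ± 0.20) was highest and Ccnb2 (−0.46 ± 0.20) lowest. Mybl2 was at 1.05 under spike-in scaling and at 0.46 with no filter on dim probes. Birc5 had only spots with an outlier flag.

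On each array 53.5% of the 59305 non-control spots were well above background and none was saturated. Of 8 CD8 T cell markers, 6 were measured, all within 2-fold and 4 of them below 0. Their median was −0.17, or 0.06 under spike-in scaling, against 0.0015 and 0.24 over all measured genes. The farthest from 0 were Cd3d at −0.61 ± 0.14 and Cd3e at −0.42 ± 0.20, and Lck was at −0.34 ± 0.14. The 2 above 0 were Cd2 at 0.10 ± 0.20 and Thy1 at 0.13 ± 0.20. Cd8a was at −0.01 ± 0.14 (3567 with prednisolone, 3716 with vehicle), or 0.23 under spike-in scaling, and Cd8b1 and Cd3g had only flagged spots. Many markers of other cells had no value, but not all were dim. Cd4 read 655.8 with prednisolone and 640.5 with vehicle (0.08 ± 0.20). Foxp3 read 53.8 with prednisolone and 93.8 with vehicle (−0.75 ± 0.22). The neutrophil marker Ly6g read 791.5 with prednisolone and 1211 with vehicle (−0.56 ± 0.20). The brighter Itgam probe read 3459 with prednisolone and 3166 with vehicle. Of 5 B cell markers 1 was measured, of 7 myeloid and dendritic markers 3, of 3 neutrophil markers 1, of 3 CD4 T cell markers 2, of 3 NK cell markers 2 and of 3 erythroid markers 2. Ms4a1, Cd79a, Lyz2, Adgre1, Itgax, Flt3, S100a8, S100a9 and Cd40lg were not well above background, and Cd79b and Ncr1 had only flagged spots. The summed intensity of the measured erythroid markers, in units of the array's 75th percentile, was 2.51 with prednisolone and 0.479 with vehicle, with Hba-a1 at 3.97 (log2). That of the myeloid markers was 1.62 with prednisolone and 3.60 with vehicle, through Cd68 (−2.22), while Csf1r was at 0.23 and Itgam at 0.02, each with its sign turned under 2 alternatives. That of the NK cell markers was 1.46 with prednisolone and 7.32 with vehicle, through Eomes (−2.38), which T cells also express. Klrb1c, the other NK cell marker measured, was dim and at 0.07 ± 0.32 (23.4 with prednisolone, 23.1 with vehicle). The part of these markers in the differences above was not tested. Fewer cells that use a gene and less RNA per cell cannot be told apart in bulk RNA.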

How the data were processed

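Total RNA of the 2 cultures was labelled with 1 dye and hybridised to Agilent arrays, per the labels' protocols. The deposited scanner files hold linear intensity written by Agilent Feature Extraction 12.0.3.1, per the file headers. The processed signal is background-subtracted and detrended within the array, and is not scaled between arrays. The deposited files also hold other columns of yes-or-no flags. A second deposited table of intensity is the processed signal times 1 constant per array, 0.858 for prednisolone and 0.792 for vehicle. The choice of these constants was not stated.

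Each processed signal was divided by the 75th percentile of its array's non-control spots (386.9 for prednisolone, 400.4 for vehicle) and put on a log2 scale. Spots with any outlier flag on either array were left out. Probes well above background on both arrays were averaged per gene. Accessions were matched, without version, to RefSeq genes of GRCm38.p6, naming 33767 of 56605 probes. The headers name build mm9, so no probe was given coordinates, and those of the promoter windows are RefSeq's on GRCm38.p6. Of the members' 17 probes, 13 were used. A difference of at least 2-fold was counted without a test. The software's error was propagated to log2. Python 3.11.15, and limma 3.58.1 in R 4.3.3 for normexp (offset 50, on the spots' median signal since the files hold no mean signal), were used. The procedure was tested on simulated data. Having 1 array per group limits the precision. There were 12 alternative settings. The members and lists were chosen with earlier results of these data known. Genes named are all members, up to 4 per pathway list and direction that were 2-fold apart (otherwise the 2 farthest from 0), and fixed anchors. Fas, cell type markers, probes that disagree and genes without a value were named after their values were seen.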

Additional observations from a re-analysis of the deposited data

How the results depend on the processing

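Of 108 recomputed values of single members, 96 moved by less than the software's error and 12 by more. Part of the 96 could not move. The second deposited table differs by 1 constant per array, which the scaling removes, and the median of 2 probes is their mean. Settings for flags, dim probes or the brightest probe reach only the members whose set of probes they change. The 96 is therefore no measure of stability. Aen was at least 2-fold higher in all 12 alternatives, and Ccng1 turned its sign in 3. Spike-in scaling moved all 9 members, since the 8 spike-in probes had a mean difference of −0.23 (SD 0.067 over probes), and Tnfrsf10b also moved under normexp, the stricter filter on dim probes and the brightest probe. Under spike-in scaling the count of members at least 2-fold apart was 2 and their median was 0.42, while under the other 11 alternatives the count was 1 and the median 0.11 to 0.19. The calls among all measured genes were 1143 higher and 486 lower under spike-in scaling (70.2% higher, against 46.6% in the main setting, with the median gene at 0.24), 385 and 410 after normexp, and 1460 and 1701 with no filter on dim probes. The counts over the other p53 targets and over the 4 further pathway lists stayed within 1.5 times. No paired analysis was possible because each group has 1 array. Dim probes limit Tnfrsf10b, and Eda2r was below that limit.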

Other observations

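The array names further genes after p53. Among the symbols starting with Trp53, a set chosen after the data were seen, Trp53rkb, a gene of a p53-related kinase, was 1.91-fold higher with prednisolone (330.4 against 178.9 with vehicle, log2 difference 0.93 ± 0.21). Trp53i13 was 1.83-fold higher on 2 probes at 0.86 and 0.88, and Trp53i11 was 0.39 ± 0.20, or 0.19 with background flags ignored. Trp53bp1, which encodes the damage adaptor 53BP1, was −0.69 ± 0.17 over 3 probes from −1.13 to −0.37, and −0.31 after normexp. The probe at −1.13 read 12.1 with prednisolone, close to the lowest intensity called well above background there (11.8). The brightest probe read 522.6 with prednisolone and 796.9 with vehicle (−0.56 ± 0.20). None of these genes reached 2-fold, except Trp53rkb (1.17) and Trp53i13 (1.10) under spike-in scaling.

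Of 5 noncoding RNA genes tied to p53, also chosen after the data were seen, 3 were measured. Trp53cor1 and Mir34a had no named probe on the array. Of the 3, 1 was at least 2-fold higher, against 5.76% of all measured genes. Dleu2, a host gene of microRNAs, was 2.08-fold higher (200.9 with prednisolone, 100.1 with vehicle), and 0.65 on the log2 scale after normexp. Pvt1 was −0.49 ± 0.14 and Neat1 −0.52 ± 0.15.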
